A study of Mus musculus with 6 samples.

Results

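The genes described here are those of the tendon lineage: Scx, Mkx, Tnmd, Kera, Fmod, Thbs4, Comp, Tnc, Prg4 and Cilp. All non-control probes whose accession maps to 1 of these 10 genes were taken, which gave 12 probes for 10 genes among 20660 gene symbols with a probe. The genes were selected on the measured difference between propolis and vehicle, since they were chosen with the large differences of Scx and Tnmd on these same arrays known. Their differences between groups are therefore given as a description and support nothing further. Where limma calls of these genes are given, they are not an independent test.

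The arrays measured RNA from the stromal vascular fraction of fat of the mesentery. It was obtained by collagenase digestion, pelleting of the cells in a centrifuge and lysis of red cells. All donors were male mice of the strain C57BL/6JHamSlc-ob/ob, which lack functional leptin and become obese. The propolis group received Brazilian propolis ethanol extract into the peritoneal cavity, 100 mg/kg per injection, with 2 injections weekly over a course of 12 weeks. The vehicle group received the solvent, which contained a little DMSO and ethanol, in the same way. Each group holds 3 samples that the labels call biological replicates. The labels give no age and no number of mice per sample, so spread here is spread between these samples.

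Levels are log2 intensities relative to the 75th percentile of each array, and differences are propolis minus vehicle on the log2 scale. Slide 1 carried the arrays of replicates 1 and 2 of both groups, and slide 2 those of replicate 3. Between 61.1% and 66.7% of spots per array stood well above background, and no spot was saturated. General markers of the fraction were well above background on all 6 arrays: Pdgfra for stromal progenitors, Ptprc for leukocytes and Pecam1 for endothelium. In a bulk sample such as this one, more cells of a type and more RNA per cell cannot be told apart.

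Tendon cells arise from progenitors that express the basic helix-loop-helix factor scleraxis, encoded by Scx, under TGF-beta and growth differentiation factor signals. Scleraxis binds DNA with E protein partners at E-box sites, and the homeodomain factor Mohawk, encoded by Mkx, acts beside it in maturing tendon. Their best known product is tenomodulin, encoded by Tnmd, a membrane protein of mature tenocytes that has also been found in adipocytes and their precursors in human fat. The remaining genes encode parts of the dense matrix around these cells: the proteoglycans keratocan and fibromodulin (Kera, Fmod), the thrombospondins Thbs4 and Comp, tenascin-C (Tnc), lubricin (Prg4) and a protein of the cartilage intermediate layer (Cilp).

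To show the letters that such factors would meet, the 250 bases upstream of the start are printed for 3 of the genes that were high after propolis: the best known scleraxis target Tnmd, the proteoglycan gene Fmod and the thrombospondin gene Thbs4. They are RefSeq sequences of GRCm38.p6, 5′ to 3′ along each gene, at chrX:133850758-133851007 on the plus strand, chr1:134037004-134037253 on the plus strand and chr13:92794819-92795068 on the minus strand. Capitals mark every match to the E-box CANNTG, which reads the same on both strands.
Tnmd: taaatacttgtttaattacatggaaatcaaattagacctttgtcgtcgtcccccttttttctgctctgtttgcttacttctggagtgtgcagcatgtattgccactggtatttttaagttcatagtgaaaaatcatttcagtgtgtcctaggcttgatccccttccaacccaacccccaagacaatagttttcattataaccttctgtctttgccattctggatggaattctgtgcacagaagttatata
Fmod: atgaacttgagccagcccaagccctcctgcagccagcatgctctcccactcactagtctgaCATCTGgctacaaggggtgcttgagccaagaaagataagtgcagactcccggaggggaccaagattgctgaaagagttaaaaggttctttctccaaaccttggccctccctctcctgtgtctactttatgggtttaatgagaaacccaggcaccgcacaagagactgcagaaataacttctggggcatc
Thbs4: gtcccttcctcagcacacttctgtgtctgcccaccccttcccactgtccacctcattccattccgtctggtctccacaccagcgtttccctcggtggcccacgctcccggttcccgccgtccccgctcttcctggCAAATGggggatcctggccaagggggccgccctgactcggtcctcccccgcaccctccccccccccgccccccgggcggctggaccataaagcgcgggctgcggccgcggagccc
The Tnmd window held 0 matches. The Fmod window held 1, CATCTG, starting 189 bases before the gene, and the Thbs4 window held 1, CAAATG, starting 115 bases before it. Of 10 genes, 6 had a window in the table, and beside these 3 the Kera window held 0 matches and the Cilp window 3. The windows of the 2 start sites of Tnc held 3 and 2. At least 1 match was present in 66.2% of all 32851 windows of this length, so a match is common and is a description of letters, not of a binding site.

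Among the transcription factor genes, Scx was high in every propolis sample and low in every vehicle sample. Its level was -4.51, -3.60 and -3.86 in vehicle 1 to 3 and -0.24, 1.47 and 1.46 in propolis 1 to 3. The lowest propolis array lay 3.36 above the highest vehicle array, and propolis 1 lay 1.71 below propolis 2. The means were -3.99 ± 0.47 and 0.90 ± 0.99 (SD, n = 3 each), a difference of 4.89 with a standard error of 0.52, or 29.6-fold. The Scx probe was well above background on all 6 arrays, so both sides were measured, but the vehicle side is dim. With normexp background correction the difference was 3.50, or 11.3-fold. Scx lies within the span of Bop1, a ribosome biogenesis gene, in the mouse assembly. The Bop1 probe gave 1.94, 1.67 and 2.21 in vehicle and 2.04, 1.22 and 2.03 in propolis, with overlapping groups and a difference of -0.18 (limma adjusted p = 0.873).

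Mkx, the partner factor in tendon, was not well above background on any array. Its probe gave -7.59, -7.47 and -7.81 in vehicle and -6.93, -5.37 and -7.46 in propolis. Values at this level have no order, and no fold is given. A difference in Mkx was not detectable with this probe.

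Tnmd was not measured above background in any vehicle sample and was clearly measured in all propolis samples. Its level was -7.43, -7.59 and -7.72 in the vehicle arrays and -0.58, -2.27 and -3.37 in propolis 1 to 3. The vehicle arrays lay together, and the propolis arrays were spread over 2.79. The means were -7.58 ± 0.15 and -2.07 ± 1.40 (SD, n = 3 each), and the measured difference was 5.51. Because the vehicle side is at background, a bound is given, by which Tnmd was at least 11.3-fold higher on the scanner's background-corrected intensities. For this bound, each vehicle array was given the lowest signal among probes well above background there, unless the probe itself was brighter. That signal is not a detection limit. On vehicle 1 it was -5.55, and the Cdh17 probe, at -5.30, was not well above background. The bound rests in part on propolis 1, and without that array it was 6.75-fold. With normexp background correction, which compresses dim signals, the difference was 1.86, below the bound, which is 3.50 in log2.

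The place of propolis 1 among the propolis samples was opposite for Scx and Tnmd. It was the lowest of them for Scx and the highest for Tnmd, where it stood 1.68 above propolis 2 and 2.79 above propolis 3. For Kera, Fmod, Thbs4, Tnc and Cilp propolis 1 was the lowest, as for Scx, and for Prg4 it was the highest, as for Tnmd.

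**Figure D1:**
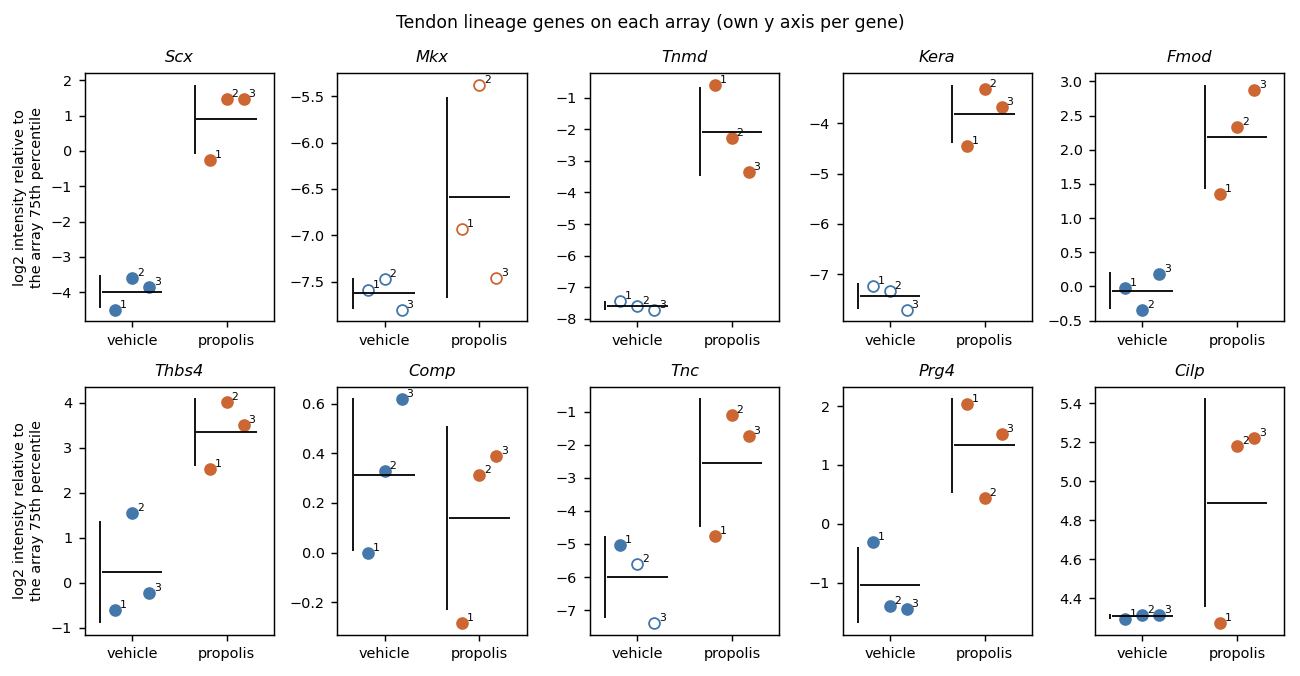
Level of each tendon lineage gene on each of the 6 arrays, in log2 intensity relative to the array's 75th percentile, with 1 y axis per gene; numbers are replicate numbers, open circles were not well above background, horizontal lines are group means and vertical lines are ± 1 SD (n = 3). Scx, Tnmd, Kera, Fmod, Thbs4, Tnc and Prg4 do not overlap between groups, Comp and Cilp do, and Mkx is at background on every array.

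Tnmd and Kera are each printed at 10 spots on every array, which shows the measurement error within an array. The spots of Tnmd ran from -0.69 to -0.45 on propolis 1, from -2.38 to -2.16 on propolis 2 and from -3.58 to -3.26 on propolis 3, with an SD of 0.08 to 0.09 among spots. The gaps between the propolis arrays were thus many times the spread within an array. On vehicle 1, a single Tnmd spot read -3.96 and a single Kera spot -2.54, while their medians there were -7.52 and -7.57. The scanner software had marked both as population outliers, and they were left out. With such spots kept, the difference of Tnmd was 5.39 in place of 5.51.

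**Figure D2:**
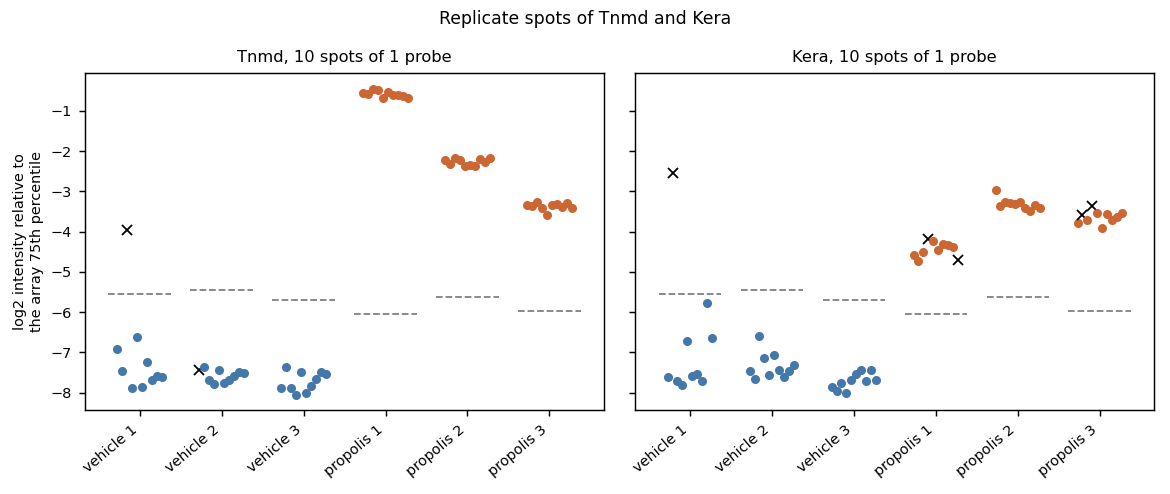
The 10 replicate spots of the Tnmd probe (left) and the Kera probe (right) on each array, in log2 intensity relative to the array's 75th percentile; black crosses are spots marked as population outliers and dashed lines the lowest signal well above background on that array. Unmarked vehicle spots lie below the dashed lines and all propolis spots above them, and 1 marked spot on vehicle 1 is high for each gene.

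The small leucine-rich proteoglycans Kera and Fmod bind collagen fibrils and set their diameter. Kera gave -7.24, -7.33 and -7.71 in vehicle, below background on each array, and -4.45, -3.31 and -3.68 in propolis. Groups were apart by 2.79, and Kera was at least 3.39-fold higher by the same bound. With normexp background correction the difference was 0.67, below the bound, which is 1.76 in log2. Fmod was measured on all arrays, at -0.02, -0.35 and 0.19 in vehicle and 1.36, 2.33 and 2.87 in propolis. All propolis arrays were higher, with means of -0.06 ± 0.27 and 2.19 ± 0.77 (SD, n = 3 each) and a 4.75-fold difference.

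Thbs4 and Comp both encode pentameric thrombospondins, and their values differed in pattern. Thbs4 gave -0.59, 1.54 and -0.23 in vehicle and 2.52, 4.01 and 3.52 in propolis. Groups did not overlap, although vehicle 2 lay within 0.98 of propolis 1, and the 8.65-fold difference rests on means of 0.24 ± 1.14 and 3.35 ± 0.76 (SD, n = 3 each). Comp gave -0.00, 0.33 and 0.62 in vehicle and -0.29, 0.31 and 0.39 in propolis. Its groups overlapped, and its difference of -0.18 has a standard error of 0.27, so no direction is read. Without propolis 1 it turned to 0.038. Whether Thbs4 and Comp differ in their response was not tested.

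Tnc encodes tenascin-C, a matrix protein of tendon and of tissue under repair. The probe that stands for it gave -5.02, -5.61 and -7.40 in vehicle and -4.76, -1.10 and -1.75 in propolis. Vehicle 1 alone was well above background in its group, and propolis 1 was just 0.25 higher than vehicle 1, so the fitted difference of 3.47 (standard error 1.07) is uncertain in size. The other Tnc probe, below background on all vehicle arrays, differed by 2.52 and was at least 4.04-fold higher by the same bound.

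Prg4, which encodes the joint and tendon lubricant lubricin, gave -0.30, -1.40 and -1.44 in vehicle and 2.03, 0.45 and 1.52 in propolis. Groups were apart by 0.75, and the difference was 2.38, or 5.19-fold. The other Prg4 probe was not above background on any array. Cilp gave 4.29, 4.32 and 4.32 in vehicle and 4.27, 5.18 and 5.22 in propolis. Propolis 1 lay below all vehicle arrays, which differed among themselves by an SD of 0.01, and the mean difference was 0.58.

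Of 10 genes, 9 entered the fit across all genes, since Mkx did not pass the filter on low values, and Tnmd and Kera entered through the propolis arrays alone. At a limma adjusted p under 0.05, 3 of them were called higher, Scx, Tnmd and Kera, and 0 lower. Of all 25777 genes and transcripts, 0.706% were called higher, 0.109% lower and 0.815% in either direction. Means were higher in propolis for 8 of the 9 and for 48% of all genes. Groups did not overlap for 7 of the 9, all higher in propolis, where this held for 10.5% of all genes and for 17.3% in either direction. The choice of the genes used this contrast, so nothing is read from these counts. The 3 calls were the same with slide as a block. Leaving out 1 array at a time, Scx and Kera were called without propolis 1 alone, and Tnmd without propolis 1 or propolis 3. Without vehicle 1, vehicle 2, vehicle 3 or propolis 2, 0 of the 9 were called.

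On each slide taken alone, the genes that were high in propolis kept that direction, which groups that do not overlap fix in advance. Scx differed by 4.67 on slide 1 and 5.33 on slide 2, and Kera by 3.41 and 4.04. Tnmd differed by 6.08 on slide 1 and 4.35 on slide 2. Tnc was the least even, at 2.38 and 5.65. Slide 2 holds 1 array of each group and allows no test, and on slide 1 alone limma called 0 genes of all, with 5913 at an unadjusted p under 0.05.

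**Figure D3:**
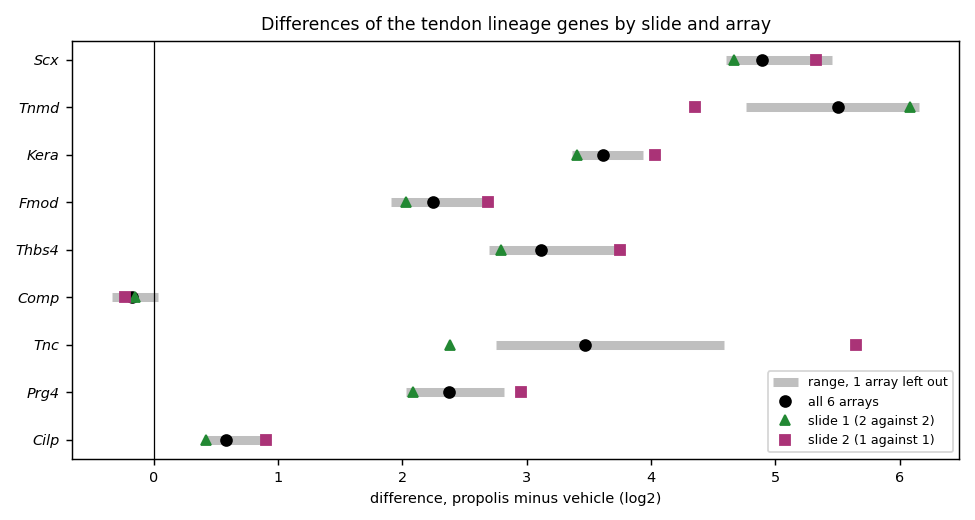
Difference between propolis and vehicle in log2 for the 9 tendon lineage genes in the fit; circles use all 6 arrays, triangles slide 1, squares slide 2, and grey bars span the 6 values with 1 array left out. Scx stays between 4.60 and 5.46 and Tnmd between 4.76 and 6.16 with 1 array left out, while Comp lies around 0.

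Signals known to induce Scx were then examined, in a list of 20 TGF-beta, growth differentiation factor, BMP and FGF genes and their receptors and SMADs. This list and the lists below were chosen with earlier results of these data known, so their counts are a description. Of 18 tested, 2 rose and 0 fell, against 0.706% called higher among all genes, and the median difference was 0.12 against -0.02 over all genes. Gdf6, a growth differentiation factor that takes part in tendon and joint formation, gave -1.34, -1.51 and -1.77 in vehicle and 1.53, 1.87 and 0.98 in propolis. No array of one group came near the other, and Gdf6 rose by 3.00 ± 0.27 (SE, limma adjusted p = 0.0158).

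Tgfb3, the TGF-beta ligand tied to tendon formation in the embryo, gave 2.84, 3.30 and 3.30 in vehicle and 4.60, 5.47 and 5.49 in propolis. It rose by 2.04, or 4.12-fold (limma adjusted p = 0.0492), close to the threshold. It did not pass with slide as a block (limma adjusted p = 0.0542) or under quantile normalization (limma adjusted p = 0.0612). With 1 array left out, Gdf6 passed without propolis 3 alone and Tgfb3 without propolis 1 alone. Mstn and Fgf4, other signals of the list, were not above background on any array.

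Factors that work beside or above Scx did not pass. Of 14 tendon regulators tested, 0 were called by limma and 2 had an unadjusted p under 0.05. Over all genes 11.6% had such a p in either direction, the share to set beside these counts for this and the lists below. The median was -0.09, turning to 0.07 when arrays were scaled by their median. Nfatc4, a calcium-responsive factor reported upstream of Scx, differed by 0.64 (limma adjusted p = 0.216), and Egr2, a zinc finger factor of tendon, by -1.11 (limma adjusted p = 0.227). Tcf3 and Tcf12, which encode E protein partners of scleraxis, differed by 0.23 and 0.13, and Tcf4, another E protein gene, by -0.26. Another probe of each, also above background on all arrays, differed by -0.14, -0.21 and -0.77 respectively. No direction is therefore read for Tcf3 and Tcf12.

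The genes of the collagen-rich tendon matrix, most of which are also made by fat stroma, were mostly a little higher. Of 25 tested, 20 had higher means, limma called 0, and 12 were higher at an unadjusted p under 0.05, where 11.6% of all genes had such a p in either direction. Their median difference was 0.57. Col11a1, a minor fibrillar collagen chain, was below background on all vehicle arrays and at -5.62, -3.67 and -5.29 in propolis. It entered the fit through the propolis arrays alone. By the bound used for Tnmd it was at least 1.64-fold higher (limma adjusted p = 0.0737). Without propolis 2 this bound was 1.09-fold. Col5a1, which nucleates collagen fibrils, differed by 1.24 (limma adjusted p = 0.0909). Dcn, the abundant proteoglycan decorin, differed by -0.12 (limma adjusted p = 0.885).

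Relatives of these genes differed in both directions. Tcf15, the nearest relative of Scx and a marker of microvascular endothelium in fat, gave 2.82, 2.07 and 3.00 in vehicle and 1.49, 0.73 and 1.71 in propolis. It was thus lower in each propolis array, by -1.32 without passing (limma adjusted p = 0.210). Cnmd, the chondromodulin gene and nearest relative of Tnmd, was not above background on any array.

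Among the thrombospondins, Thbs2 differed by 1.48 (limma adjusted p = 0.0879) and Thbs3 by -0.01 (limma adjusted p = 0.994). Tnn, which encodes the tenascin of developing bone and tendon sheath, was below background in vehicle and at -4.52, -2.09 and -5.27 in propolis. By the bound used for Tnmd it was at least 3.06-fold higher (limma adjusted p = 0.103). It entered the fit through the propolis arrays alone, and without propolis 2 the bound was 1.60-fold. Among the proteoglycans, Epyc differed by 1.96 (limma adjusted p = 0.0865) and Lum by 0.80 (limma adjusted p = 0.192). Cilp2 differed by 0.35 (limma adjusted p = 0.766). Of the 13 relatives tested, 0 were called by limma and 6 had an unadjusted p under 0.05, 4 of them higher.

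Markers of other connective tissues that share genes with tendon were mostly at background. Of 16 cartilage genes with a probe, 8 were tested, and the collagen gene Col2a1 and the matrilin gene Matn3 were not above background on any array. Acan, the aggrecan gene, differed by 0.25. The cartilage list had a median of 0.06, which became -0.05 with normexp background correction. None passed in limma, which is 0 of 8. Matn4, at 0.82 (limma adjusted p = 0.335), was the 1 gene with an unadjusted p under 0.05.

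Of 8 bone genes with a probe, 3 were tested and 0 called, and 0 had an unadjusted p under 0.05. The osteoblast factor gene Sp7 stood above background on 2 propolis arrays and no vehicle array, at -5.71 and -4.99 there, and did not enter the fit. Alpl, the alkaline phosphatase gene, differed by 1.31 (limma adjusted p = 0.526). Of 12 skeletal muscle genes, 4 were tested and limma called 0, also at an unadjusted p under 0.05. Myh2 differed by -1.07 (limma adjusted p = 0.656) and Tnni2 by -0.75 (limma adjusted p = 0.515), and Ckm, the muscle creatine kinase gene, and Myog were not in the fit.

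**Figure D4:**
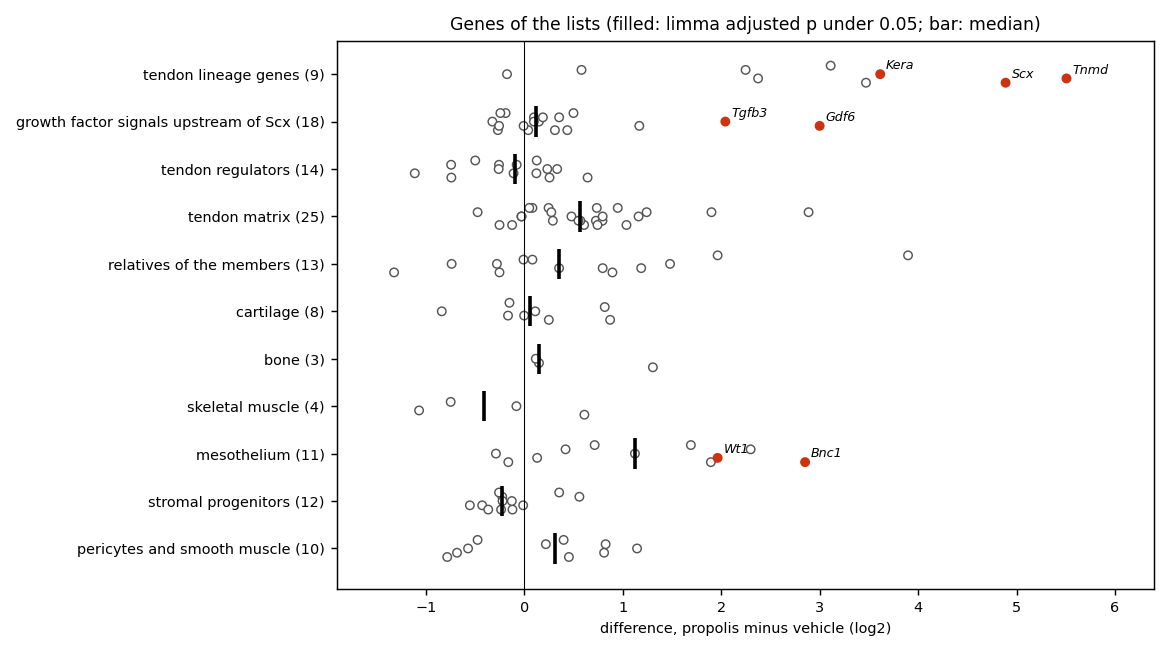
Differences between propolis and vehicle in log2 for every tested gene of the tendon lineage genes and of 10 other gene lists (number of tested genes in brackets); filled circles have a limma adjusted p under 0.05 over all genes and black bars are medians of the other lists. Only Tgfb3, Gdf6, Wt1 and Bnc1 are filled outside the tendon lineage genes in the lists shown.

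Mesothelial genes, which mark the cells lining the peritoneum and the mesentery, mostly had higher means in the propolis group. Of 11 tested, 2 rose and 0 fell, where 0.706% of all genes were called higher and 0.109% lower. As for the other lists, this count is a description. Means were higher for 9 of the 11, against 48% of all genes, with a median difference of 1.12. Bnc1, a zinc finger factor of mesothelium, rose by 2.85 (limma adjusted p = 0.0298) and Wt1, the Wilms tumour factor, by 1.96 (limma adjusted p = 0.0368). With 1 array left out Bnc1 passed without vehicle 1 alone and Wt1 in 0 of 6 settings. The list mean was 0.85, -0.39 and 1.51 on the vehicle arrays and 1.84, 1.33 and 2.25 on the propolis arrays. Vehicle 3 lay above propolis 2. The 4 genes Krt8, Krt18, Krt19 and Cldn15, which simple epithelia such as that of the intestine also express, were each highest in vehicle 3. Without these 4, a choice made after the values were seen, the mean of the other 7 was 0.84, -0.43 and 0.01 on the vehicle arrays and 2.02, 1.42 and 2.35 on the propolis arrays. The groups were then apart, and all 7 genes had higher means, with a median difference of 1.90. With all 11 genes the groups overlapped, so this separation rests on the choice of genes. The 4 genes left out had a median difference of -0.02, and among the 7 kept, Upk3b and Gpm6a overlapped between groups. The mean of the 9 tendon lineage genes in the fit was -0.02, 0.79 and 0.69 on propolis 1 to 3. The part of mesothelial cells in the differences of the tendon lineage genes was not tested.

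Of 12 stromal progenitor genes tested, 0 passed in limma, also at an unadjusted p under 0.05. Means were higher for 2 of them, and for 5 when arrays were scaled by their median, which moved the median difference from -0.22 to -0.06. The mean of their log2 levels lay between 3.15 and 3.40 on vehicle arrays, and on propolis arrays between 2.94 and 3.29. Pdgfra, the receptor that defines them, differed by -0.12, Pi16 by -0.13 and Cd34 by -0.22. Of 10 pericyte and smooth muscle genes limma called 0, with 1 higher and 1 lower at an unadjusted p under 0.05. Pdgfrb differed by 0.45 (limma adjusted p = 0.408) and Rgs5 by -0.78 (limma adjusted p = 0.414).

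Marker genes of pancreatic acini and of intestinal epithelium stood out in single vehicle arrays. The mean of 6 pancreatic acinar genes was 4.45 in vehicle 2 and between -3.56 and -2.69 in the other arrays. The mean of 8 intestinal epithelial genes was 4.60 in vehicle 3 and between -4.06 and -0.12 elsewhere. Propolis 1 had the value of -0.12. The 8 B cell genes had a mean of 1.30 on vehicle 2, of -0.59 on vehicle 1 and of -3.29 to -1.98 on the remaining arrays. Of these 3 lists limma called 0 genes, and the unadjusted p was under 0.05 for 1 acinar, 0 intestinal and 3 B cell genes, all lower. Vehicle 1 was at -3.10 for the acinar, -2.54 for the intestinal and -0.59 for the B cell mean, the last above every propolis array. Scx was at -4.51, -3.60 and -3.86 in vehicle 1 to 3, and Tnmd was below background on all vehicle arrays. The part of RNA of these 3 lists in the differences of the tendon lineage genes was not tested. Against vehicle 1 alone, without vehicle 2 and vehicle 3, Scx differed by 5.41, Fmod by 2.21, Thbs4 by 3.95, Prg4 by 1.63 and Tnc by 2.48. Tnmd differed by 5.35 and Kera by 3.43 against a vehicle value below background. Comp differed by 0.14 and Cilp by 0.60. This setting has a single vehicle array, and where groups do not overlap the sign was fixed by the choice of genes, so these values are a description. In that setting 0 genes were called by limma, and 1355 had an unadjusted p under 0.05.

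**Figure D5:**
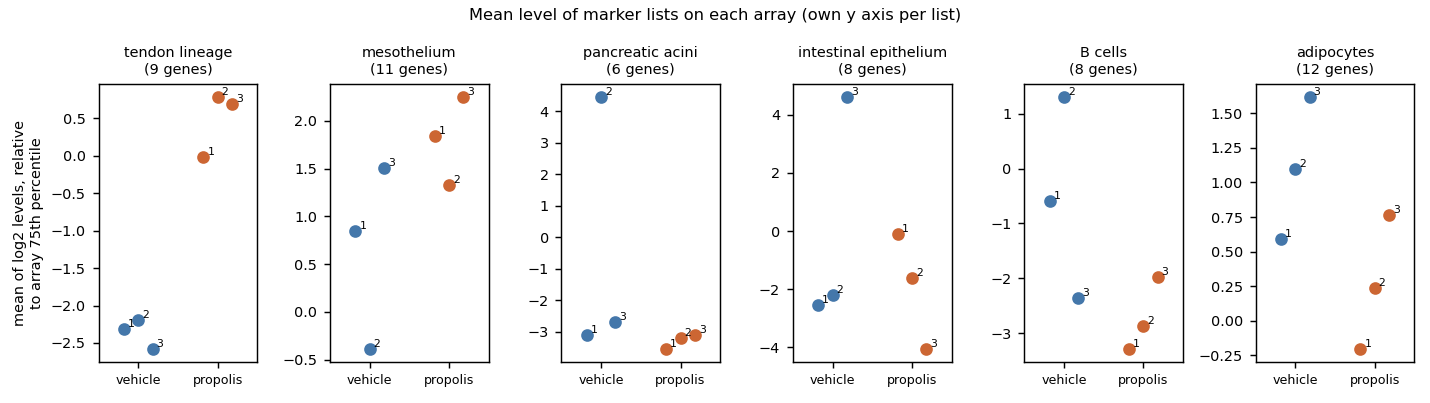
Mean of the log2 levels of 6 gene lists on each array, relative to the array's 75th percentile, with 1 y axis per list and replicate numbers beside the points. The 9 tendon lineage genes separate the groups, as they were chosen to, the mesothelial list of 11 genes overlaps through vehicle 3, and the pancreatic and intestinal lists are high in vehicle 2 and vehicle 3 respectively.

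The adipocyte, leukocyte and endothelial lists had lower means in propolis with no call. All 12 adipocyte genes had lower means, where 48% of all genes had higher ones. With median scaling or quantile normalization 1 of the 12 had a higher mean. None was called in limma (0 of 12), although the unadjusted p of 5 was under 0.05, where 11.6% of all genes had such a p in either direction. Their mean level was 0.59, 1.10 and 1.62 on the vehicle arrays and -0.21, 0.23 and 0.76 on the propolis arrays. All 8 leukocyte and endothelial genes were also lower in the mean, with 0 called by limma and 1 at an unadjusted p under 0.05, the endothelial cadherin gene Cdh5 (-0.81).

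The genes whose pattern over the 6 arrays was closest to Scx, other than the tendon lineage genes, were Angptl7, Ncam1, Tmem132d, Prss35 and Calca. Likeness was the root mean square difference of log2 values after each gene's own mean was removed, over all genes with a symbol in the fit. It counts the size of the group difference as well as the order of arrays within a group. It was 0.47 for Angptl7, a secreted angiopoietin-like protein gene, and 0.49 for Ncam1, a cell adhesion gene. Angptl7 gave -2.43, -1.70 and -1.71 in vehicle and 0.91, 2.40 and 3.28 in propolis. It shared with Scx the low propolis 1 and the low vehicle 1. Tmem132d (0.54) and Prss35 (0.60) were below background in vehicle, so their likeness rests on the propolis arrays and on values without order, and Calca, the calcitonin gene-related peptide gene, was at 0.73.

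Closest to Tnmd were Cdh3 (0.82), Gbx2 (0.83), Saa2 (0.97), Cyp26a1 (1.04) and Chrdl2 (1.04). Cdh3 encodes P-cadherin, Gbx2 a homeobox factor, Saa2 a serum amyloid protein, Cyp26a1 a retinoic acid degrading enzyme and Chrdl2 a BMP antagonist related to chordin. Chrdl2 gave -2.38, -4.67 and -3.97 in vehicle and 1.94, -0.56 and 0.01 in propolis, with propolis 1 highest as for Tnmd. Cdh3, the closest, gave 1.54, 2.34 and 0.84 in propolis, with propolis 2 highest. Tnmd itself was below background on the vehicle arrays, as were Gbx2, Saa2 and Cyp26a1, so these distances rest in part on values without order. By the same measure Kera was at 0.78 from Scx, with 7 other genes with a symbol closer. Thbs4 was at 1.02, with 24 closer, and Tnmd at 1.43, with 101 closer. Kera and Tnmd were below background on the vehicle arrays, so their distances also rest in part on values without order. Comp, at 2.56, and Cilp, at 2.19, were the farthest of the tendon lineage genes from Scx.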

How the data were processed

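RNA of 6 samples was hybridised to Agilent mouse arrays in 1 colour, and scans were quantified by Feature Extraction 10.7.3.1 per the submitters' processing notes, with a design made on mm9 per the file headers. The deposited scanner tables hold a background-corrected intensity. The deposited series table holds log2 values near 0 at each array's 75th percentile, with medians from -3.97 to -3.62, and served as an alternative.

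Intensities were turned to log2, spots marked non-uniform or population outliers were left out, replicate spots averaged and the 75th percentile subtracted. Probes well above background on at least 3 of 6 arrays, in at least 50% of their spots, and with no missing value entered (34782 of 55681). Each gene was represented by its brightest entering probe, which left 25777 genes and transcripts. Symbols came from RefSeq accessions (GRCm38.p6), and 28446 probes had none.

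limma 3.58.1 in R 4.3.3 compared the groups with no blocking factor, p-values were adjusted by Benjamini-Hochberg across all genes, 0.05 was the threshold, and the procedure was tested on simulated data. An exact permutation p cannot fall below 0.1 here.

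The genes, the 15 other lists and the tests were chosen with earlier results of these data known. Of 195 listed genes, 189 had a probe. Named genes were all tendon lineage genes, their relatives, the called genes of each list or its 2 of lowest p, and the 5 closest in pattern to Scx and to Tnmd. Defining markers and E protein genes were named beside these. Alternatives covered background, scaling, filter, flags, probes, variance model, slide, replicate number and left-out arrays. Keeping population outlier spots, the bounds without each array and the mesothelial mean without 4 epithelial genes were added after the data were seen. Saturation could not matter, since no spot was saturated.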

Additional observations from a re-analysis of the deposited data

How the results depend on the processing

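Directions held for Scx, Tnmd, Kera, Fmod, Thbs4, Tnc, Prg4 and Cilp under every alternative in which each entered, and Tnmd, Kera and Tnc did not enter where probes had to be above background on all arrays. Comp turned to 0.17 with array weights, 0.14 without vehicle 2 and vehicle 3, and ranged from -0.33 to 0.038 with 1 array left out, the highest being without propolis 1. With normexp background correction, which adds an offset of 50 to every corrected signal, Scx differed by 3.50, Tnmd by 1.86, Kera by 0.67 and Tnc by 1.17, and on slide 2 alone Tnmd differed by 4.35. Dim signal limits Tnmd and Kera, below background on all vehicle arrays, Tnc, below it on 2 of 3, and Mkx, below it on all 6 arrays.

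Of all genes, limma called 210 in the main setting, 496 at an adjusted p under 0.10, 321 with median scaling (which moved the median of all genes from -0.02 to 0.15), 96 without the filter, 3302 with array weights, and 11 to 91 with 1 array left out. Array weights gave vehicle 1 a weight of 8.90 and propolis 3 one of 0.29. Of the tendon lineage genes, 3 were called in the main setting, 1 with normexp or with the stricter filter, 7 with array weights and 0 to 3 with 1 array left out. Nothing is read from the counts of the tendon lineage genes, since they were chosen on this contrast. Of 157 other listed genes, 4 were called in the main setting, 7 with normexp, 1 without the filter, 37 with array weights and 0 to 2 with 1 array left out. On slide 1 alone, and without vehicle 2 and vehicle 3 together, limma called 0 in each of these 3 counts. The unadjusted p was under 0.05 for 5913 and 1355 of all genes, 6 and 5 of the tendon lineage genes and 47 and 21 of the other listed genes. Fewer arrays enter these fits, and the cause of the other changes was not tested.

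With the replicate block, 43 genes were called, of which 35 were among the 210, with 1 tendon lineage gene (Scx) and 2 other listed genes. Deviations of same-numbered arrays from their group means correlated at 0.04, 0.29 and 0.14. Propolis 2 was the closest to vehicle 1 and to vehicle 2, and propolis 3 to vehicle 3. With 3 arrays per group, these values cannot decide whether the numbers pair the samples.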
